A study of Saccharomyces cerevisiae with 11 samples.

Results

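The peroxisome and fatty acid oxidation genes of baker's yeast, Saccharomyces cerevisiae, were followed as slow-growing anaerobic cultures were brought close to growth arrest. A gene was taken if a probe set annotated to it alone carried a PEX symbol with a number or 1 of 19 symbols of fatty acid metabolism, and its brightest probe set was used. This gave 46 genes, 27 of them PEX genes and 19 fatty acid genes, of 5656 genes with a probe set of their own. All 46 were among the 5577 genes tested. They were arranged by role into the import machinery (15 genes), membrane biogenesis, division and size of peroxisomes (12), oxidation enzymes (7), activation and transport of fatty acids (6), the carnitine shuttle (4) and regulators (2).

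Every sample was the rim15 deletion strain IMK313, derived from the prototrophic strain CEN.PK113-7D; RIM15 encodes a kinase of nutrient signalling, and both the controls and the later samples lack it. The cultures were anaerobic and glucose-limited at pH 5.0 and 30 °C, on synthetic medium with 50 g of glucose per litre and the antifoaming agent Struktol J673, with a dilution rate of 0.025 per h. The starting point was the chemostat (3 cultures), in which cells leave with the effluent and the population keeps growing. In the retentostat (2 cultures) a filter retains the cells, so that growth slows towards 0 while glucose still flows in, and both cultures were sampled on days 2, 9, 16 and 20. Each sample was hybridised to its own Affymetrix array, whose linear probe-set signals were used. Wild-type cultures were not analysed here, and what the deletion itself does cannot be read from these values.

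Peroxisomes hold the whole fatty acid beta-oxidation pathway of this yeast, and mitochondria have none. Their matrix enzymes are made in the cytosol and carried in by the receptors Pex5 and Pex7, which dock at the membrane, release their cargo and are ubiquitinated and pulled back out. Growth on oleate raises the oxidation genes through the factors Oaf1 and Pip2, and glucose represses them. The first oxidation step, by Pox1, passes electrons to molecular oxygen, which these cultures were not supplied with.

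The signal of the deleted gene RIM15 was 0.4 to 13.9 and at or under 12, the floor to which all lower signals were raised, on 10 of 11 arrays. The median signal of an array lay between 85.3 and 122. In culture 2 on days 9, 16 and 20, the ACT1 control probe sets had a 3' to 5' signal ratio of 27.0 to 217, against 0.966 to 2.03 on the other 8 arrays. Without these 3 arrays each late day keeps 1 array, and values without them are given below. Relative to the chemostat, all genes together had a median log2 difference of 0.11, 0.25, 0.35 and 0.36 on days 2, 9, 16 and 20 at the deposited scaling. Quantile scaling left this shift at -0.00, 0.03, 0.05 and 0.02, and scaling each array to its median left -0.01, -0.02, -0.02 and -0.05. A log2 difference of a gene is therefore best read against that shift. Less RNA per cell and fewer cells that express a gene cannot be told apart in such bulk samples.

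Some genes of fatty acid oxidation fell and some genes of peroxisome assembly rose in the retentostat. Against the chemostat, 7, 10 and 7 of the 46 genes rose on days 9, 16 and 20, all of them PEX genes, and 5 genes fell on each of these days, all of them fatty acid genes (limma, Benjamini-Hochberg adjusted p under 0.05 over 5577 genes). The genes that rose were 15.2%, 21.7% and 15.2% of the 46, close to the 11.4%, 16.6% and 10.5% of all genes that rose on those days. The genes that fell were 10.9% on each day, against 3.68%, 4.32% and 3.01% of all genes. The fatty acid and PEX genes described below are compared with the chemostat unless stated. All these comparisons share the 3 chemostat arrays, and the later days share 2 cultures, so they are not separate repeats of each other. The map of all 46 genes by array shows the split between the PEX rows and the oxidation rows.

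**Figure D1:**
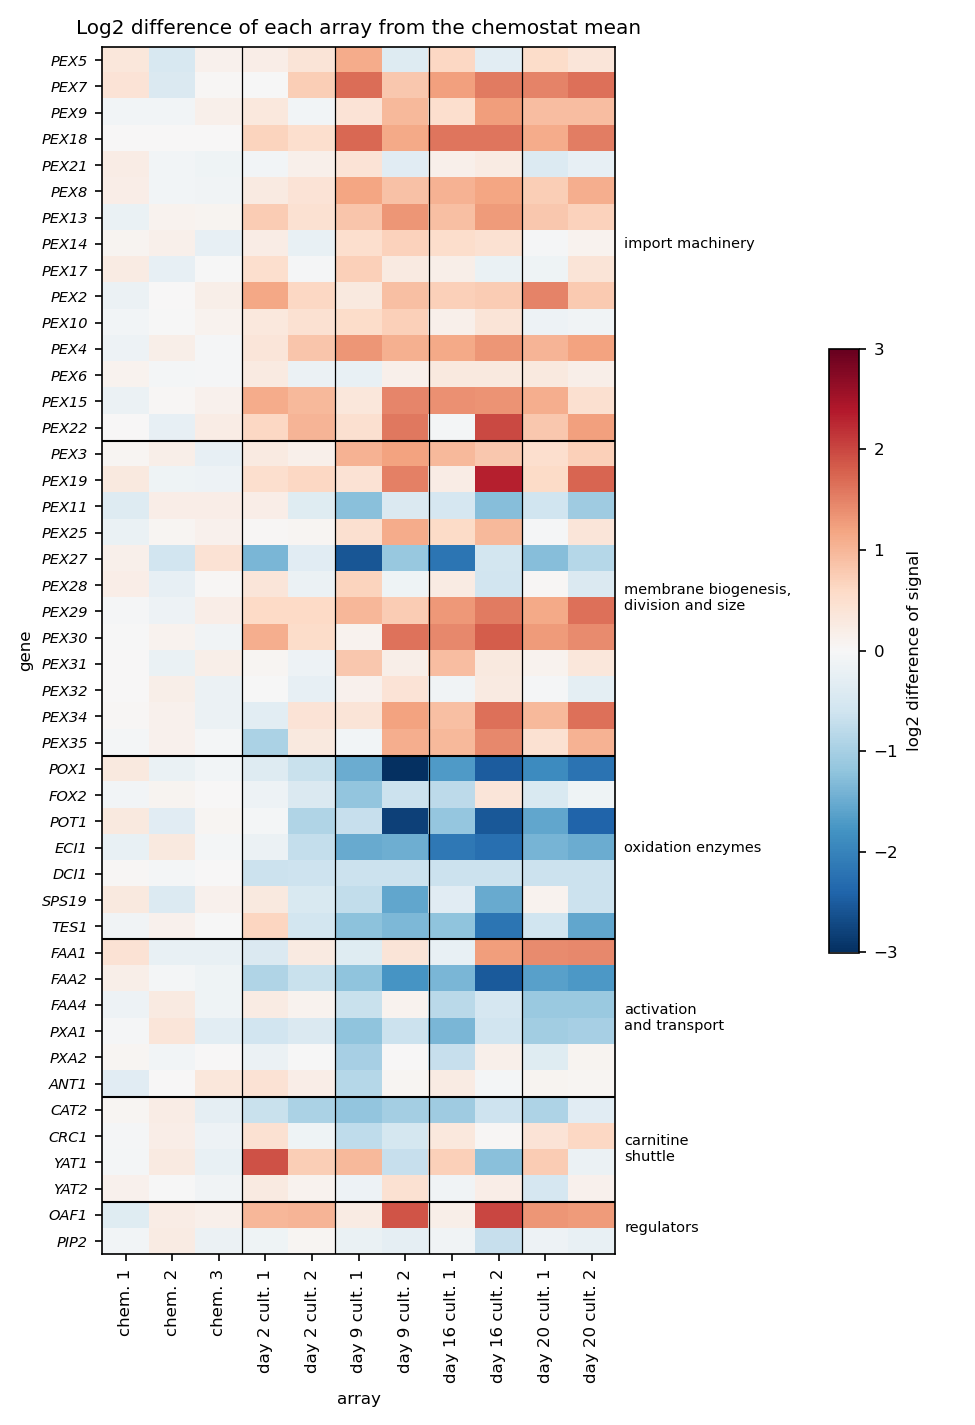
Log2 signal of each of the 46 genes (rows, by role) on each of the 11 arrays (columns, by sampling point and culture), as the difference from that gene's chemostat mean. Most values of the 7 oxidation enzymes are lower from day 9 on. FOX2 in culture 2 of day 16 (0.37) and SPS19 in culture 1 of day 20 (0.10) lie above the chemostat mean. Most rows of the import machinery turn to higher values, and the carnitine shuttle and regulators are mixed.

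The split depends on the scaling. With quantile scaling, 4, 3 and 2 members were higher and 7, 7 and 7 lower on days 9, 16 and 20, and with median scaling 4, 3 and 2 were higher and 9, 9 and 7 lower. Of all genes, 337, 372 and 198 were then higher and 242, 307 and 227 lower with quantile scaling, and 306, 336 and 186 higher and 335, 426 and 350 lower with median scaling. The fatty acid members kept a count of 0 higher under both. The PEX genes called higher were the same under both: PEX18, PEX13, PEX4 and PEX3 on day 9, PEX18, PEX4 and PEX29 on day 16, and PEX18 and PEX29 on day 20. The other rises of PEX genes given below did not pass with either scaling. Among PEX genes, PEX27 was called lower on day 9 under both other scalings, and PEX11 on day 16 with median scaling. Without the 3 arrays of high ACT1 ratio, each late day keeps 1 array. The median log2 difference on days 9, 16 and 20 was then -1.18, -1.16 and -0.65 over the oxidation enzymes. Over the import machinery it was 0.55, 0.63 and 0.80. The -0.65 is the value of DCI1, held at the floor of 12. Single arrays also moved the number of members called. On day 20 it went from 12 to 0 without culture 2 of that day, to 2 without culture 1 of it, and to 4, 5 and 4 without chemostat array 1, 2 or 3. On day 16 it went from 15 to 7, 9 and 8 without these chemostat arrays and to 6 without culture 2 of day 16. On day 9 it went from 12 to 6, 6 and 4 without chemostat array 1, 2 or 3 and to 7 without culture 2 of day 9. These are numbers of calls, and the genes called need not be the same. Calls over all genes moved as well. Without chemostat array 1, 2 or 3 they went from 842 to 387, 469 and 327 on day 9. On day 16 they went from 1167 to 593, 671 and 537, and on day 20 from 753 to 267, 317 and 288. They also fell without either array of day 9, culture 2 of day 16 or either array of day 20, each taken on its own day. Without culture 1 of day 16 the calls of day 16 rose instead, and the array left is that with the ACT1 ratio of 217. Each of these fits leaves 1 array on that day.

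The retentostat arrays come from 2 cultures sampled repeatedly. With the culture as a random block, 6, 11 and 8 members were higher and 8, 7 and 6 lower on days 9, 16 and 20. The higher members were 13.0%, 23.9% and 17.4% of the 46, against 12.1%, 17.4% and 11.8% of all genes in that fit. The lower members were 17.4%, 15.2% and 13.0%, against 4.0%, 4.7% and 3.1% of all genes. This fit added POT1 as lower on all 3 days, PXA1 as lower on days 16 and 20, and TES1 and PEX27 as lower on day 9. It also added PEX35 as higher on day 16 and FAA1 as higher on day 20. The calls of PEX7 on day 9 and DCI1 on day 20 were lost in it. The counts and calls below are those of the fit without the block unless stated.

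All 7 oxidation enzymes had a lower mean log2 signal than the chemostat on days 9, 16 and 20, and 3, 4 and 3 of them fell. The falls were 42.9%, 57.1% and 42.9% of the 7, against 3.68%, 4.32% and 3.01% of all genes. The median log2 difference of the 7 was -0.45, -1.29, -1.69 and -1.08 on days 2, 9, 16 and 20. Quantile scaling gave -1.48, -1.99 and -1.42 on days 9, 16 and 20, with the same numbers of the 7 called. With that scaling 4.34%, 5.50% and 4.07% of all genes fell. The plot of the oxidation enzymes by array gives their signals.

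**Figure D2:**
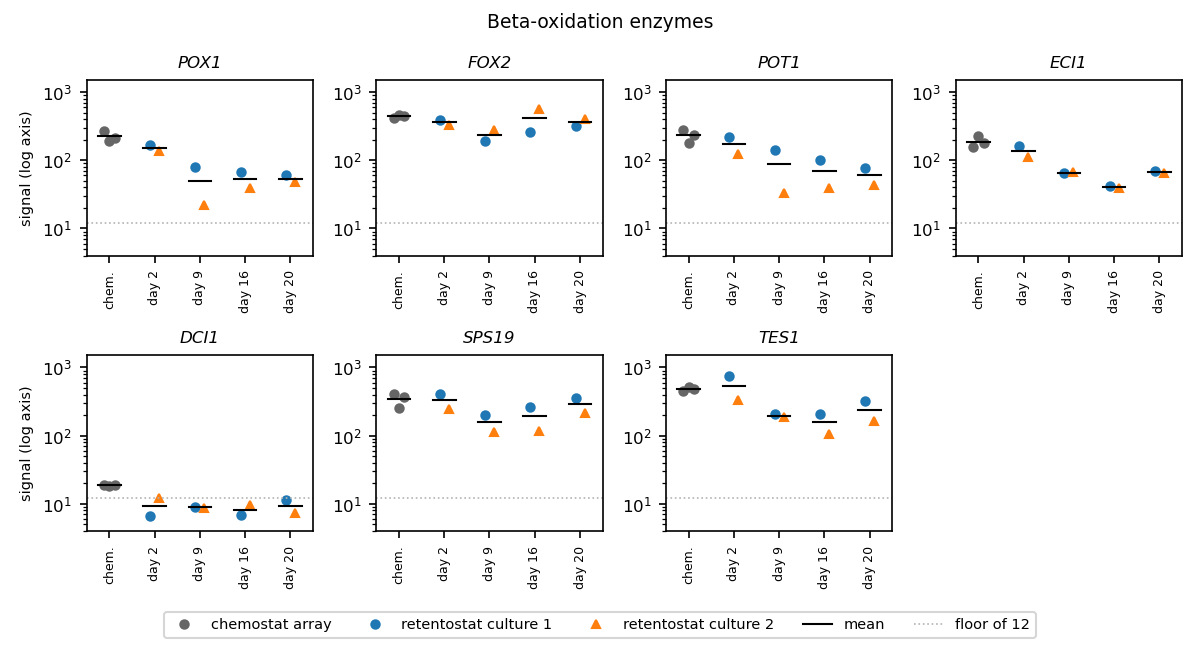
Signal of each of the 7 oxidation enzymes (y axis, linear deposited units on a log scale) at the 5 sampling points (x axis). Grey points are chemostat arrays, blue circles culture 1, orange triangles culture 2, black bars the group means, and the dotted line the floor of 12. POX1, ECI1 and POT1 drop from day 9 on in both cultures, while SPS19 and FOX2 return to values near the chemostat on day 20 in at least 1 culture.

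POX1 encodes acyl-CoA oxidase, the only oxidase of the pathway in this yeast. Its signals were 268.5, 192.0 and 208.6 in the chemostat, then 167.5 and 138.4 on day 2, 78.6 and 21.7 on day 9, 67.5 and 38.9 at day 16, and 59.9 and 47.7 at day 20, with culture 1 before culture 2 on each day here and below. Every retentostat array lay under every chemostat array, and those of days 9, 16 and 20 lay under both of day 2. The log2 difference from the chemostat was -0.54 on day 2 (adjusted p = 0.844), and then -2.42 ± 0.48 at day 9 (adjusted p = 0.0119), -2.11 ± 0.48 at day 16 (adjusted p = 0.0164) and -2.05 ± 0.48 at day 20 (adjusted p = 0.0256), where ± is the moderated standard error from limma with 3 chemostat and 2 retentostat arrays. With 1 array left out at a time, the POX1 call of day 9 held throughout (adjusted p 0.00569 to 0.045), that of day 16 was lost without chemostat array 1 or culture 2 of day 16 (adjusted p 0.0033 to 0.119), and that of day 20 was lost without chemostat array 1, 2 or 3 or either array of day 20 (adjusted p 0.00451 to 0.212). POX1 has 3 more probe sets of its own, and all 4 were lower on day 9, with log2 differences of -2.42, -2.86, -1.22 and -2.21, and on day 20, with -2.05, -2.73, -1.19 and -2.21. The last of them was at or under the floor on all 6 later arrays.

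FOX2 encodes the multifunctional enzyme of the hydration and dehydrogenation steps. It gave signals of 414.1, 462.0 and 440.6 in the chemostat, then 391.8 and 325.7 on day 2, 193.5 and 278.4 on day 9, 256.4 and 566.8 at day 16, and 317.8 and 400.4 at day 20. Its log2 difference was -0.92 ± 0.34 at day 9 (adjusted p = 0.0964), -0.20 ± 0.34 at day 16 (adjusted p = 0.693) and -0.30 ± 0.34 at day 20 (adjusted p = 0.573), so that it passed the threshold on no day. The cultures went apart on day 16, when culture 2 lay above the 3 chemostat arrays and culture 1 below them. POT1, the thiolase that releases acetyl-CoA and is imported through Pex7, read 277.4, 181.3 and 235.8 in the chemostat, then 220.5 and 121.9 on day 2, 140.7 and 32.8 on day 9, 102.1 and 39.0 at day 16, and 78.0 and 42.8 at day 20. All 6 arrays of days 9 to 20 lay below the 3 chemostat arrays. The log2 differences were -1.75 ± 0.63 at day 9 (adjusted p = 0.0911), -1.85 ± 0.63 at day 16 (adjusted p = 0.0637) and -1.98 ± 0.63 at day 20 (adjusted p = 0.0659), and none passed the threshold. POT1 was called lower on all 3 days with the culture as a random block, and also with the replicate block. Culture 2 gave lower POT1 signals than culture 1 on all 4 days, by 0.86, 2.10, 1.39 and 0.87 on the log2 scale.

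ECI1 encodes the isomerase that lets unsaturated fatty acids such as oleate enter the cycle. Its signals were 157.4, 224.4 and 177.8 in the chemostat, then 162.6 and 111.8 on day 2, 64.8 and 66.7 on day 9, 41.5 and 38.7 at day 16, and 70.3 and 65.8 at day 20. The arrays of days 9, 16 and 20 did not overlap with those of the chemostat or of day 2, and the cultures lay close to each other. The log2 difference was -1.49 ± 0.25 at day 9 (adjusted p = 0.00608), -2.20 ± 0.25 at day 16 (adjusted p = 0.00116) and -1.44 ± 0.25 at day 20 (adjusted p = 0.00704). Over the 11 fits without 1 array each, the ECI1 call of day 9 held throughout (adjusted p 0.00632 to 0.0287), that of day 16 held throughout (adjusted p 0.00198 to 0.00947), and that of day 20 was lost without either array of day 20 (adjusted p 0.00805 to 0.0868). The ECI1 calls of days 9 and 16 also held in the 9 other settings tried.

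DCI1, a relative of ECI1 that acts on dienoyl intermediates, was dim: 19.2, 18.2 and 19.1 in the chemostat, then 6.6 and 12.2 on day 2, 9.1 and 8.8 on day 9, 6.9 and 9.5 at day 16, and 11.3 and 7.4 at day 20. Only the 3 chemostat arrays and culture 2 of day 2 were above the floor of 12. The signals of days 9, 16 and 20 were all under it, so DCI1 was at least 1.57-fold lower on each of those days (adjusted p = 0.0457, 0.0381 and 0.0492). In the fits that left out 1 array, the DCI1 call of day 9 was lost without chemostat array 1, 2 or 3, either array of day 2, either array of day 9 or either array of day 20 (adjusted p 0.0295 to 0.134), that of day 16 was lost without chemostat array 1, 2 or 3, culture 2 of day 16 or either array of day 20 (adjusted p 0.0287 to 0.112), and that of day 20 was lost without chemostat array 1, 2 or 3, either array of day 2 or either array of day 20 (adjusted p 0.0318 to 0.265).

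SPS19, a dienoyl-CoA reductase needed for some unsaturated fatty acids, gave 413.9, 251.6 and 367.7 in the chemostat, then 413.9 and 244.4 on day 2, 200.6 and 113.6 on day 9, 264.2 and 117.3 at day 16, and 360.4 and 215.7 at day 20. Its log2 differences of -1.16, -0.94 and -0.27 on days 9, 16 and 20 had adjusted p-values of 0.111, 0.154 and 0.702, and culture 2 was below culture 1 on each day. TES1, a peroxisomal acyl-CoA thioesterase, gave 445.5, 521.2 and 476.4 in the chemostat, then 750.0 and 328.2 on day 2, 204.5 and 188.1 on day 9, 209.4 and 105.5 at day 16, and 316.6 and 163.1 at day 20. The 6 late arrays lay below the chemostat without overlap, while day 2 had 1 array above it and 1 below. TES1 fell on day 16, with a log2 difference of -1.69 ± 0.43 (adjusted p = 0.0233); the differences of -1.29 on day 9 and -1.08 on day 20 had adjusted p-values of 0.0709 and 0.12. When each array was left out in turn, the TES1 call of day 16 was lost without chemostat array 1, 2 or 3 or culture 2 of day 16 (adjusted p 0.0167 to 0.164). The call was also lost without the 3 arrays whose ACT1 ratio was high (adjusted p = 0.158).

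Among the 6 genes of activation and transport, 1, 1 and 2 fell on days 9, 16 and 20 and none rose. The falls were 16.7%, 16.7% and 33.3% of the 6, against 3.68%, 4.32% and 3.01% of all genes. The median log2 difference of the 6 was -0.44, -0.46 and -0.58. FAA2 encodes the acyl-CoA synthetase that activates medium-chain fatty acids at the peroxisome. Its signals were 313.4, 265.9 and 254.3 in the chemostat, then 146.9 and 173.9 on day 2, 119.5 and 81.3 on day 9, 106.4 and 48.6 at day 16, and 90.1 and 84.0 at day 20. All retentostat arrays were below all chemostat arrays, already on day 2, although the day 2 difference of -0.79 did not pass (adjusted p = 0.536). The log2 difference was -1.49 ± 0.33 at day 9 (adjusted p = 0.0186), -1.94 ± 0.33 at day 16 (adjusted p = 0.00556) and -1.67 ± 0.33 at day 20 (adjusted p = 0.0144). With 1 array left out at a time, the FAA2 call of day 9 was lost without chemostat array 1, 2 or 3 or culture 2 of day 9 (adjusted p 0.00566 to 0.0994), that of day 16 held throughout (adjusted p 0.00342 to 0.0294), and that of day 20 was lost without chemostat array 1 or either array of day 20 (adjusted p 0.00385 to 0.142).

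FAA1 and FAA4 encode the main acyl-CoA synthetases for fatty acids taken up from outside. FAA4 read 814.3, 1089.6 and 816.2 in the chemostat, then 1059.4 and 958.8 on day 2, 565.0 and 973.1 on day 9, 511.1 and 635.7 at day 16, and 414.7 and 416.1 at day 20. It stayed near the chemostat on day 2 and fell by day 20, with a log2 difference of -1.11 ± 0.28 (adjusted p = 0.0317), when both arrays lay below the chemostat. Over the 11 fits without 1 array each, the FAA4 call of day 20 was lost without chemostat array 1, 2 or 3 or either array of day 20 (adjusted p 0.0147 to 0.21). FAA1 read 125.0, 79.6 and 78.8 in the chemostat, then 68.3 and 112.0 on day 2, 72.0 and 121.5 on day 9, 78.6 and 219.9 at day 16, and 245.1 and 249.0 at day 20. The day 20 arrays were the highest of all, with a log2 difference of 1.42 ± 0.45 at day 20 (adjusted p = 0.0663), which did not pass the threshold. Between days 2 and 20 FAA4 went down and FAA1 up in both cultures, by -1.28 and 1.50 on the log2 scale, but these differences did not pass (adjusted p = 0.11 and 0.229).

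PXA1 and PXA2 encode the paired subunits of the transporter that brings long-chain acyl-CoA into the peroxisome. The log2 differences of PXA1 were -0.93 ± 0.31 at day 9 (adjusted p = 0.0745), -0.97 ± 0.31 at day 16 (adjusted p = 0.0535) and -1.02 ± 0.31 at day 20 (adjusted p = 0.0591), none past the threshold, with all 6 late arrays (56.5 to 98.6) below the 3 of the chemostat (117.4 to 187.1). PXA2 had log2 differences of -0.49, -0.27 and -0.14, with overlapping arrays. ANT1, the carrier of ATP into peroxisomes, had log2 differences of -0.39, 0.09 and 0.07.

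In the carnitine shuttle, which passes acetyl units between compartments, 1 of 4 genes changed. It fell on day 9, as did 3.68% of all genes. CAT2 encodes the carnitine acetyltransferase of peroxisomes and mitochondria, and its signals were 357.5, 404.6 and 284.8 in the chemostat, then 218.5 and 179.4 on day 2, 151.7 and 169.8 on day 9, 164.3 and 224.7 at day 16, and 181.6 and 272.0 at day 20. All 8 retentostat arrays lay below the chemostat. CAT2 fell on day 9, with a log2 difference of -1.11 ± 0.27 (adjusted p = 0.0261), and was at -0.85 and -0.64 on days 16 and 20 (adjusted p = 0.0546 and 0.147). In the fits that left out 1 array, the CAT2 call of day 9 was lost without chemostat array 1, 2 or 3 or either array of day 9 (adjusted p 0.0213 to 0.084). The other carnitine acetyltransferase genes, YAT1 and YAT2, and the mitochondrial carrier gene CRC1 passed no test. YAT1 had the widest spread between cultures: 795.1 and 354.3 on day 2, 420.2 and 131.3 on day 9, and 346.2 and 88.8 on day 16, against 182.5 to 257.2 in the chemostat.

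The genes of the oleate-responsive activators did not pass the threshold. OAF1 gave 83.1, 125.7 and 119.5 in the chemostat, then 213.4 and 216.9 on day 2, 126.7 and 399.4 on day 9, 122.4 and 428.5 at day 16, and 270.5 and 259.0 at day 20. All but culture 1 of day 16 were above the chemostat range, and the log2 differences were 1.06, 1.09 and 1.30 on days 9, 16 and 20 (adjusted p of 0.149 or more). On days 9 and 16 culture 2 exceeded culture 1 by 1.66 and 1.81 (log2), on arrays that also have the high ACT1 ratio, whose part in this was not tested. PIP2 had log2 differences of -0.04, -0.23, -0.39 and -0.18 on the 4 days, with adjusted p-values of 0.269 or more.

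In the import machinery, 5, 6 and 5 of 15 genes rose on days 9, 16 and 20 and none fell. The rises were 33.3%, 40.0% and 33.3% of the 15, against 11.4%, 16.6% and 10.5% of all genes. The median log2 difference was 0.37, 0.70, 0.88 and 0.79 on days 2, 9, 16 and 20, and 15, 14, 14 and 13 of the genes were above 0. Relative to the median of all genes, 12, 13, 10 and 10 of the 15 were higher. Quantile scaling lowered the medians of days 9, 16 and 20 to 0.50, 0.54 and 0.32 and the counts of rises to 3, 2 and 1. Those counts were 20.0%, 13.3% and 6.67% of the 15, against 6.04%, 6.67% and 3.55% of all genes. The plot of the import genes by array gives all 15.

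**Figure D3:**
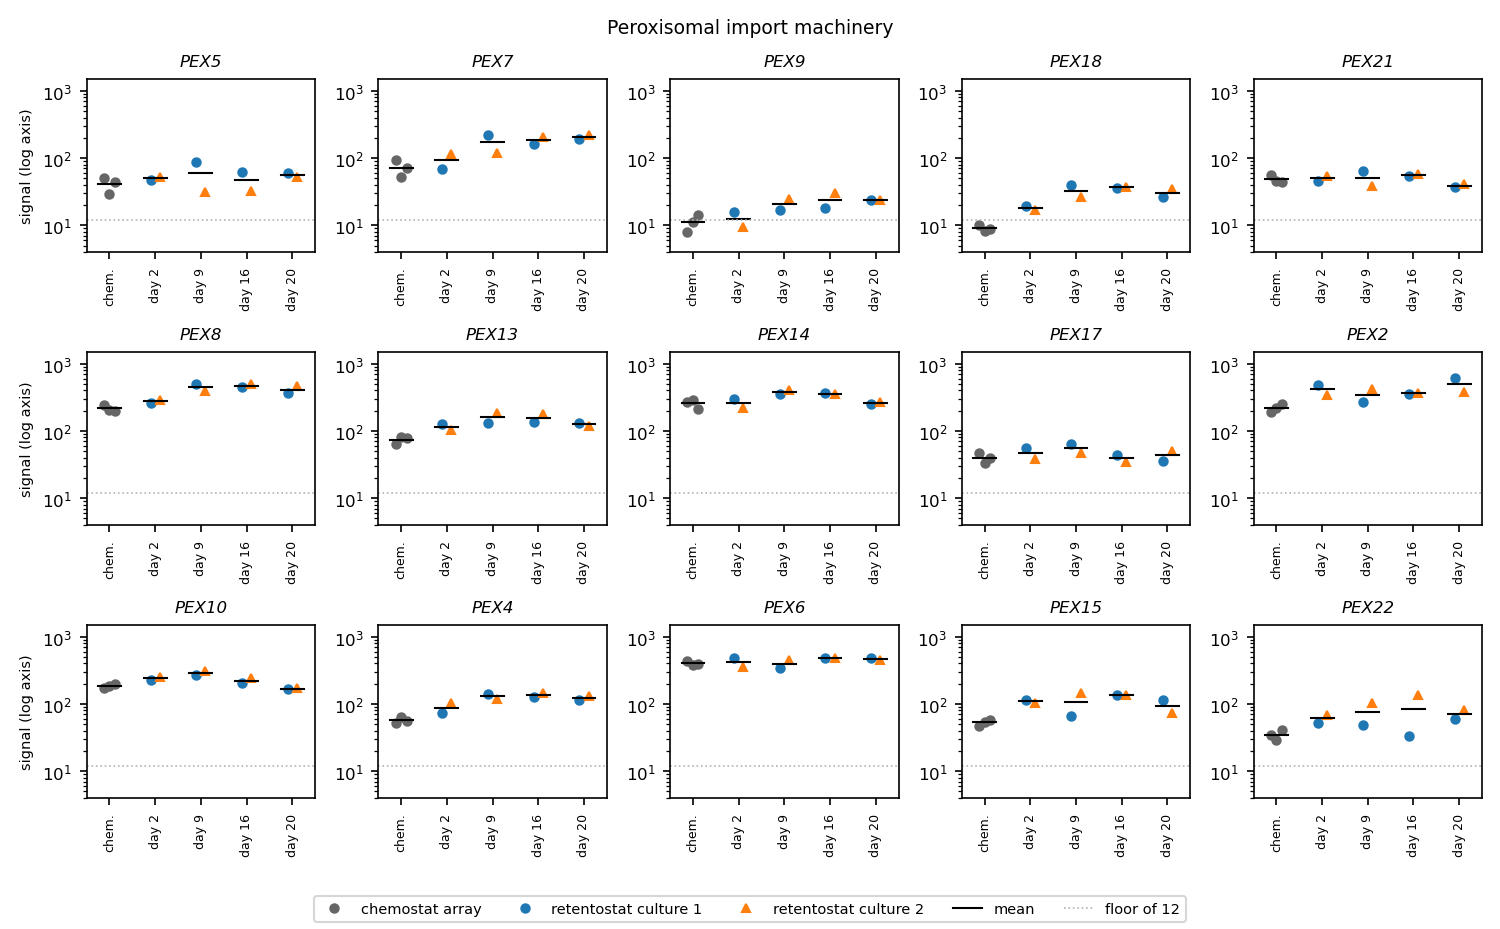
Signal of each of the 15 import machinery genes (y axis, linear deposited units on a log scale) at the 5 sampling points (x axis). Grey points are chemostat arrays, blue circles culture 1, orange triangles culture 2, black bars the group means, and the dotted line the floor of 12. PEX18, PEX4 and PEX8 lie above all chemostat arrays on days 9, 16 and 20 in both cultures.

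Among the cargo receptors, PEX7 and its co-receptor PEX18 rose and the others did not pass. Pex7 recognises the type 2 targeting signal, carried by few matrix proteins, Pot1 among them. PEX7 signals were 92.2, 51.5 and 71.1 in the chemostat, then 69.6 and 115.7 on day 2, 222.6 and 121.0 on day 9, 162.7 and 205.6 at day 16, and 194.2 and 219.1 at day 20. The late arrays exceeded the chemostat without overlap, and the log2 difference was 1.24 ± 0.36 at day 9 (adjusted p = 0.0472), 1.39 ± 0.36 at day 16 (adjusted p = 0.025) and 1.57 ± 0.36 at day 20 (adjusted p = 0.0234). When each array was left out in turn, the PEX7 call of day 9 was lost without chemostat array 1, 2 or 3, either array of day 2, culture 1 of day 9 or either array of day 20 (adjusted p 0.0405 to 0.2), that of day 16 was lost without chemostat array 2 or 3 or culture 2 of day 16 (adjusted p 0.0172 to 0.135), and that of day 20 was lost without chemostat array 2 or 3 or either array of day 20 (adjusted p 0.0164 to 0.203). All 3 calls were also lost with quantile or median scaling and without the 3 arrays whose ACT1 ratio was high (adjusted p up to 0.135, 0.132 and 0.109).

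PEX18 encodes a co-receptor that Pex7 needs to dock. It was dim, at 10.2, 8.2 and 8.7 in the chemostat, then 19.1 and 16.9 on day 2, 39.3 and 26.2 on day 9, 36.4 and 36.7 at day 16, and 26.0 and 34.8 at day 20. All 3 chemostat arrays were under the floor of 12 and all 8 retentostat arrays above it. PEX18 was therefore at least 2.67-fold higher on day 9, 3.05-fold on day 16 and 2.51-fold on day 20 (adjusted p = 0.00686, 0.00328 and 0.00939). With 1 array left out at a time, the PEX18 call of day 9 held throughout (adjusted p 0.00739 to 0.0333), that of day 16 held throughout (adjusted p 0.00244 to 0.0217), and that of day 20 was lost without culture 2 of day 20 (adjusted p 0.00571 to 0.137). With the floor at 30, above most of its signals, PEX18 no longer passed (adjusted p = 0.535, 0.296 and 0.73). PEX21, the other co-receptor, read 44.3 to 56.7 in the chemostat and 36.9 to 64.3 in the retentostat, with log2 differences of 0.03, 0.20 and -0.33 on days 9, 16 and 20. PEX5, the receptor of the type 1 signal that most matrix enzymes carry, had 0.37, 0.16 and 0.46 on the same scale and days (adjusted p of 0.507 or more). PEX9, a related receptor, was at the floor on 2 of 3 chemostat arrays and had 0.88 and 0.92 on days 16 and 20 (adjusted p = 0.0582 and 0.0629).

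In the docking complex, PEX13 rose, and PEX14 and PEX17 did not pass. PEX13 signals were 64.8, 80.2 and 78.2 in the chemostat, then 125.6 and 102.2 on day 2, 132.9 and 184.9 on day 9, 138.2 and 178.8 at day 16, and 130.7 and 119.7 at day 20, all retentostat arrays above the chemostat. The log2 difference was 1.08 ± 0.25 at day 9 (adjusted p = 0.0194), 1.09 ± 0.25 at day 16 (adjusted p = 0.0159) and 0.76 ± 0.25 at day 20 (adjusted p = 0.0698), the last not past the threshold. Over the 11 fits without 1 array each, the PEX13 call of day 9 was lost without chemostat array 1 or 3 or culture 2 of day 9 (adjusted p 0.0151 to 0.0927), and that of day 16 was lost without chemostat array 1 or culture 2 of day 16 (adjusted p 0.0115 to 0.0918). The log2 differences on days 9, 16 and 20 were 0.60, 0.49 and 0.03 for PEX14, and for PEX17 0.49, -0.01 and 0.13. PEX8, whose protein joins the docking complex to the ubiquitin ligases from inside, read 246.6, 202.6 and 201.4 in the chemostat, then 261.2 and 287.8 on day 2, 493.1 and 396.5 on day 9, 446.0 and 493.2 at day 16, and 361.4 and 462.7 at day 20. It was above the chemostat on every retentostat array and rose by 1.03 ± 0.23 at day 9 (adjusted p = 0.017), 1.12 ± 0.23 at day 16 (adjusted p = 0.0104) and 0.92 ± 0.23 at day 20 (adjusted p = 0.0298). In the fits that left out 1 array, the PEX8 call of day 9 was lost without chemostat array 2 or 3 or culture 1 of day 9 (adjusted p 0.0149 to 0.0695), that of day 16 was lost without culture 2 of day 16 (adjusted p 0.00864 to 0.0561), and that of day 20 was lost without chemostat array 1, 2 or 3 or either array of day 20 (adjusted p 0.0235 to 0.264).

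Pex2 and Pex10 belong to the ubiquitin ligase of the import pore. PEX2 gave 194.3, 222.5 and 248.4 in the chemostat, then 489.8 and 339.9 on day 2, 269.3 and 415.6 on day 9, 360.0 and 372.7 at day 16, and 622.3 and 382.6 at day 20. All 8 retentostat arrays were above the chemostat, and the gene rose on day 20, by 1.15 ± 0.30 (adjusted p = 0.0374), but the differences of 0.60 and 0.73 before did not pass (adjusted p = 0.211 and 0.11). When each array was left out in turn, the PEX2 call of day 20 was lost without chemostat array 1, 2 or 3 or either array of day 20 (adjusted p 0.0272 to 0.229). PEX10 had log2 differences of 0.64, 0.27 and -0.13 on days 9, 16 and 20 and passed on no day.

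Receptor recycling needs the ubiquitin-conjugating enzyme Pex4, its anchor Pex22, and the ATPase Pex6 with its anchor Pex15. PEX4 gave 51.3, 64.4 and 55.4 in the chemostat, then 73.6 and 101.8 on day 2, 141.8 and 118.4 on day 9, 125.1 and 143.1 at day 16, and 115.1 and 130.9 at day 20. The retentostat arrays were all above the chemostat, and PEX4 rose by 1.19 ± 0.24 at day 9 (adjusted p = 0.0114), 1.24 ± 0.24 at day 16 (adjusted p = 0.00808) and 1.11 ± 0.24 at day 20 (adjusted p = 0.0178). With 1 array left out at a time, the PEX4 call of day 9 held throughout (adjusted p 0.0105 to 0.0495), that of day 16 held throughout (adjusted p 0.00773 to 0.0492), and that of day 20 was lost without chemostat array 1 or 3 or either array of day 20 (adjusted p 0.0159 to 0.185). PEX15 read 47.3, 54.3 and 58.1 in the chemostat, then 115.4 and 104.7 on day 2, 66.6 and 145.9 on day 9, 137.7 and 134.9 at day 16, and 113.7 and 73.7 at day 20, again with no overlap between chemostat and retentostat. It rose on day 16, by 1.36 ± 0.34 (adjusted p = 0.0215), and was at 1.05, 0.89 and 0.79 on days 2, 9 and 20 without passing. Over the 11 fits without 1 array each, the PEX15 call of day 16 was lost without chemostat array 1, 2 or 3 or culture 2 of day 16 (adjusted p 0.00674 to 0.0937). PEX22 had log2 differences of 1.03, 0.96 and 1.02, and culture 2 stood above culture 1 by 2.03 (log2) on day 16, and PEX22 did not pass. The log2 difference of PEX6 was between -0.04 and 0.29.

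Of the 12 genes for membrane biogenesis, division and size, 2, 4 and 2 rose on days 9, 16 and 20 and none fell. The rises were 16.7%, 33.3% and 16.7% of the 12, against 11.4%, 16.6% and 10.5% of all genes. The median log2 difference was 0.64, 0.83 and 0.42. Quantile scaling gave medians of 0.39, 0.47 and 0.00 and 1, 1 and 1 genes higher, with 1 lower on day 9. Each count of 1 is 8.33% of the 12, against 6.04%, 6.67% and 3.55% of all genes higher and 4.34% lower on day 9.

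PEX3 encodes the membrane receptor on which peroxisomal membrane proteins are placed by Pex19. Its signals were 214.8, 234.2 and 175.3 in the chemostat, then 250.7 and 228.1 on day 2, 426.0 and 477.4 on day 9, 405.0 and 359.6 at day 16, and 294.2 and 339.5 at day 20. The late arrays exceeded the chemostat without overlap, and PEX3 rose by 1.13 ± 0.22 at day 9 (adjusted p = 0.011) and 0.89 ± 0.22 at day 16 (adjusted p = 0.0218); day 20 gave 0.61 (adjusted p = 0.0915). In the fits that left out 1 array, the PEX3 call of day 9 was lost without chemostat array 3 (adjusted p 0.00943 to 0.05), and that of day 16 was lost without chemostat array 1 or 3 or culture 2 of day 16 (adjusted p 0.0195 to 0.0819). PEX19 had log2 differences of 0.97, 1.28 and 1.16 on days 9, 16 and 20 and passed on none, with culture 2 above culture 1 by 1.07, 2.11 and 1.18 (log2) on those days.

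PEX29 and PEX30 encode membrane proteins that regulate peroxisome number and size. PEX29 read 98.6, 90.9 and 116.6 in the chemostat, then 153.6 and 152.5 on day 2, 202.6 and 172.4 on day 9, 249.8 and 298.4 at day 16, and 221.6 and 317.8 at day 20. Every retentostat array was above the chemostat, and PEX29 rose by 0.88 ± 0.24 at day 9 (adjusted p = 0.0379), 1.43 ± 0.24 at day 16 (adjusted p = 0.00524) and 1.39 ± 0.24 at day 20 (adjusted p = 0.0075). When each array was left out in turn, the PEX29 call of day 9 was lost without chemostat array 1, 2 or 3, either array of day 2 or either array of day 9 (adjusted p 0.0303 to 0.113), that of day 16 held throughout (adjusted p 0.00544 to 0.0346), and that of day 20 was lost without culture 2 of day 20 (adjusted p 0.00733 to 0.113). PEX30 read 44.4, 48.2 and 41.8 in the chemostat, then 94.8 and 65.9 on day 2, 48.2 and 139.1 on day 9, 120.6 and 158.0 at day 16, and 108.2 and 119.6 at day 20. It rose on day 16, by 1.63 ± 0.40 (adjusted p = 0.0208), with 0.87 and 1.35 on days 9 and 20 (adjusted p = 0.173 and 0.0532). With 1 array left out at a time, the PEX30 call of day 16 was lost without chemostat array 1, 2 or 3 or culture 2 of day 16 (adjusted p 0.00369 to 0.123). The related PEX28, PEX31 and PEX32 had log2 differences between -0.21 and 0.61 on days 9, 16 and 20 and did not pass.

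PEX34 takes part in peroxisome division, and its signals were 347.3, 367.5 and 297.8 in the chemostat, then 269.6 and 444.6 on day 2, 441.2 and 780.6 on day 9, 630.9 and 1054.2 at day 16, and 662.2 and 1057.5 at day 20. Culture 2 was above culture 1 throughout. PEX34 rose by 1.28 ± 0.37 at day 16 (adjusted p = 0.0378) and 1.32 ± 0.37 at day 20 (adjusted p = 0.0447), and was at 0.80 on day 9 (adjusted p = 0.174). Over the 11 fits without 1 array each, the PEX34 call of day 16 was lost without chemostat array 1, 2 or 3 or culture 2 of day 16 (adjusted p 0.0262 to 0.223), and that of day 20 was lost without chemostat array 1, 2 or 3, either array of day 2 or either array of day 20 (adjusted p 0.033 to 0.329). PEX11, the main division factor and an oleate-induced gene, read 529.3, 790.6 and 791.8 in the chemostat, 798.7 and 538.9 on day 2 and 287.1 to 515.0 on the 6 later arrays. All 6 lay below the chemostat, but the log2 differences of -0.83, -0.89 and -0.82 did not pass (adjusted p = 0.154, 0.107 and 0.155). PEX27, a relative of PEX11, had log2 differences of -1.85, -1.38 and -1.07 (adjusted p = 0.0614 on day 9), and PEX25, another relative, 0.79, 0.78 and 0.17. PEX35 gave 181.4 and 248.3 on day 16, against 88.2 to 100.4 in the chemostat, and did not pass (adjusted p = 0.0766).

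The oxidation enzymes and the import machinery were then set against each other. The median over the oxidation enzymes minus that over the import genes, of the log2 differences from the chemostat, was -0.82, -1.99, -2.57 and -1.87 on days 2, 9, 16 and 20. On single arrays this gap was 0.03, 0.02 and -0.02 in the chemostat, -0.49 and -1.08 on day 2, -1.73 and -2.34 on day 9, -1.78 and -3.38 on day 16, and -1.45 and -2.18 on day 20. All 8 retentostat arrays were below the 3 chemostat arrays, and the 6 late arrays below both of day 2. Each gene was centred on the mean of these same 3 chemostat arrays, so their gaps lie around 0 by construction. The separation from them is therefore only descriptive. Culture 2 had the wider gap on each day; its arrays of days 9, 16 and 20 are those with a high ACT1 ratio, whose part in the gap was not tested. After quantile scaling the gap was -1.99, -2.53 and -1.73 on days 9, 16 and 20, and without the 3 arrays of high ACT1 ratio it was -1.73, -1.78 and -1.45. In culture 1 of day 20 the oxidation median was DCI1 held at the floor of 12, so the gap of -1.45 could be wider. In culture 2 of day 2 it was DCI1 too, at a signal of 12.2, just above the floor. No test was made, because genes of a list are not replicates.

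**Figure D4:**
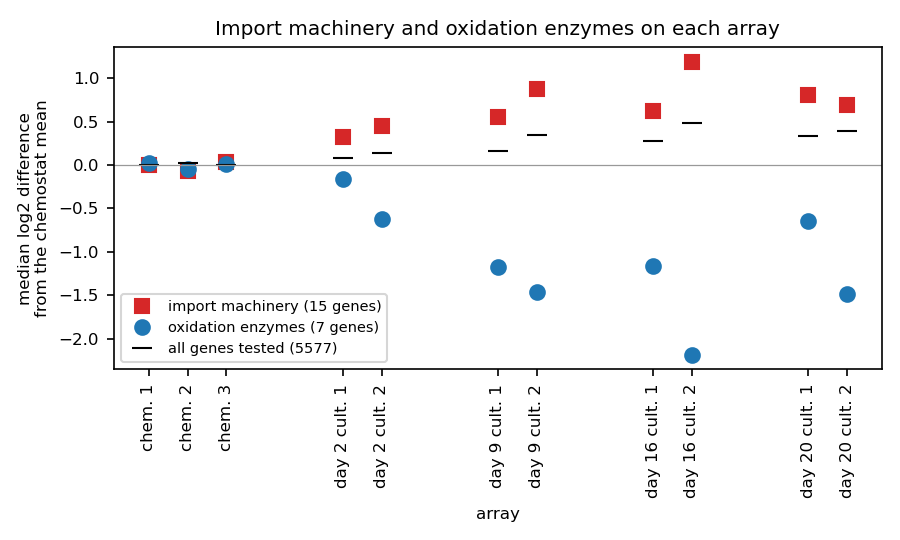
Median log2 difference from the chemostat mean over the 15 import genes and over the 7 oxidation enzymes (y axis) on each array at the 5 sampling points (x axis), as red squares and blue circles with 1 point per array, and over all 5577 genes as black dashes. On day 9 the oxidation medians are -1.18 and -1.47 and the import medians 0.55 and 0.88; on day 20 the oxidation medians are -0.65 and -1.49 and the import medians 0.80 and 0.69.

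The arrays were also compared without a model. All 6 arrays of days 9, 16 and 20 lay above all 3 chemostat arrays for 8 of the 15 import genes (PEX7, PEX9, PEX18, PEX8, PEX13, PEX2, PEX4 and PEX15), against 24.5% of all genes. They lay below for 5 of the 7 oxidation enzymes (POX1, POT1, ECI1, DCI1 and TES1), against 7.67% of all genes. Over all 46 members 11 lay above, or 23.9%, which is near the background, and 9 below, or 19.6%. After quantile scaling 4 import genes lay above, against 13.2% of all genes, and 5 oxidation enzymes below, against 11.8%.

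On day 2 no member passed the limma test, while 9 had an unadjusted p under 0.05: PEX18, PEX13, PEX2, PEX4, PEX15 and PEX29 with higher signals and DCI1, FAA2 and CAT2 with lower ones. Of all genes, 0.0179% were called higher and 0.0% lower on day 2, and 478 of 5577 (8.57%) had an unadjusted p under 0.05. From day 2 to day 20 no member passed either, with 14 at an unadjusted p under 0.05, against 0.323% of all genes higher, 0.269% lower and 758 (13.6%) at an unadjusted p under 0.05. With the replicate number as a block, which pairs each day 20 array with the day 2 array of its culture, the count of members was also 0, and with the culture as a random block it was 1, FAA4, which was lower. All 7 oxidation enzymes had a lower mean log2 signal on day 20 than on day 2, but FOX2 and DCI1 hardly moved. FOX2 changed by -0.30 in culture 1 and 0.30 in culture 2, which nearly cancel, and DCI1 was at or near the floor on both days. The other 5 of the 7 were lower in both cultures, as were 19.8% of all genes. The log2 signal on day 20 minus that on day 2 was, in cultures 1 and 2, -1.48 and -1.54 for POX1, -1.50 and -1.51 for POT1, and -1.24 and -1.01 for TES1. Among PEX genes 16 of 27 (59.3%) were higher on day 20 in both cultures, near the 51.4% of all genes.

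An F test over the 5 sampling points called 8 members: POX1, ECI1, FAA2, PEX18, PEX8, PEX4, PEX3 and PEX29, or 17.4% of the 46 against 11.4% of all genes. The adjusted p was 0.00418 for ECI1 and 0.0101 for PEX18. The count was 1 without chemostat array 1, 2 or 3. Calls over all genes fell as well in these fits, to 2.8%, 3.44% and 3.05%. The count also moved in fits that leave 1 array on a day.

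Of 35 further genes of peroxisomes and fatty acid metabolism, listed beside the members for context, 0, 3, 7 and 8 were called on days 2, 9, 16 and 20. These are 0.0%, 8.57%, 20.0% and 22.9% of the list, against 0.0179%, 15.1%, 20.9% and 13.5% of all genes. These shares count rises and falls alike, and those of days 9 and 16 were not above the background. By direction, 2, 1 and 3 of the 35 rose and 1, 6 and 5 fell on days 9, 16 and 20. Of all genes, 11.4%, 16.6% and 10.5% rose and 3.68%, 4.32% and 3.01% fell. Falls were thus more frequent in the list than among all genes on days 16 and 20, and rises were less frequent on each of these days. Most falls of days 16 and 20 were outside the peroxisomal enzymes: 2 and 2 of 7 genes of fatty acid supply, 3 and 3 of 4 of fatty acid synthesis. The 14 other peroxisomal enzymes had 1 and 0 falls and 1 and 2 rises. MLS1, the malate synthase of the glyoxylate cycle, which uses acetyl-CoA, read 26.9, 28.0 and 26.4 in the chemostat, then 72.1 and 89.2 on day 2, 96.3 and 236.8 on day 9, 143.4 and 252.7 at day 16, and 181.4 and 247.6 at day 20. All retentostat arrays exceeded the chemostat, and MLS1 rose by 2.48 ± 0.39 at day 9 (adjusted p = 0.00517), 2.81 ± 0.39 at day 16 (adjusted p = 0.00226) and 2.97 ± 0.39 at day 20 (adjusted p = 0.0027). Its calls held in 11, 11 and 10 of the 11 fits that left out 1 array (adjusted p up to 0.0252, 0.0223 and 0.0507). Among the other peroxisomal enzymes listed (14 with MLS1), PCS60, an oxalyl-CoA synthetase, rose on day 20 (1.17, adjusted p = 0.0241) and GPD1, a glycerol phosphate dehydrogenase found partly in peroxisomes, fell on day 16 (-1.23, adjusted p = 0.0283). Each of these calls was lost in 4 of the 11 fits that left out 1 array (adjusted p up to 0.171 and 0.105). The PCS60 call was also lost with quantile scaling, with median scaling, with the replicate block and without the 3 arrays of high ACT1 ratio. That of GPD1 was also lost with only the groups compared. The peroxisomal catalase gene CTA1 passed on no day.

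Of the 7 genes of division, inheritance and turnover, ATG11, a scaffold of selective autophagy, rose on days 9 and 20 (0.88 and 0.80, adjusted p = 0.0295 and 0.0452), calls that were lost in 6 and 7 of the fits that left out 1 array. Both ATG11 calls were also lost with quantile scaling, with median scaling, with the replicate block and without the 3 arrays of high ACT1 ratio. None of the 3 other regulators, ADR1, OAF3 and SNF1, passed. Of the 7 genes of fatty acid supply, the acyl-CoA synthetase gene FAA3 fell by 0.80, 1.27 and 0.91 (log2) on days 9, 16 and 20 (adjusted p = 0.0403, 0.00589 and 0.0299), and ACB1, the acyl-CoA binding protein gene, fell by 0.94 and 1.12 on days 16 and 20 (adjusted p = 0.0205 and 0.0155). The FAA3 call of day 16 held in all 11 fits that left out 1 array, and those of days 9 and 20 were lost in 8 and 5 of them; each ACB1 call was lost in 4.

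Fatty acid synthesis takes place in the cytosol, and 3 of its 4 listed genes fell on day 16 and 3 on day 20. On those days 4.32% and 3.01% of all genes fell. ACC1, acetyl-CoA carboxylase, read 5402.9 to 6497.3 in the chemostat and 1987.6 to 2788.7 on days 16 and 20, and fell by 1.14 and 1.43 (log2; adjusted p = 0.00765 and 0.00421). FAS1 fell on days 16 and 20 (-1.51 and -1.33, adjusted p = 0.0233 and 0.0476), FAS2 on day 16 (-1.35, adjusted p = 0.0271) and OLE1, the fatty acid desaturase gene, on day 20 (-1.37, adjusted p = 0.0448). The ACC1 call of day 16 held in all 11 fits that left out 1 array and that of day 20 in 10 of them. The other 4 synthesis calls were lost in 3 to 7 of them, and each was lost in 1 or more of the other settings. For FAS2 and OLE1 these include leaving out the 3 arrays of high ACT1 ratio.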

How the data were processed

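Total RNA of 11 samples was extracted with hot phenol and hybridised to Affymetrix yeast arrays, 1 array per sample, per the labels' protocols. The deposited values are linear probe-set intensities, called signals here, that the authors made with GCOS 1.2, per the submitters' processing notes, with background and scaling settings not given in the sources used here. Once 2% of the probe sets were trimmed at each end, the arrays had equal mean signals within 0.0133%, so they carry 1 common scaling. Of 9335 probe sets, 6504 were annotated to 1 gene by the platform's table, and all of these matched a gene table. The brightest probe set per gene was kept, and POX1 is also given by all its probe sets. Signals under 12 were raised to 12 before taking log2, and genes at or under 12 on all arrays were left out. Coordinates are left out because no build is named. Probe sets of different genes were not compared in level.

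Groups follow the labels: chemostat (3 arrays) and retentostat days 2, 9, 16 and 20 (2 arrays each). Comparisons used limma (version 3.58.1, under R 4.3.3) with 1 mean per group, lmFit and eBayes on all 11 arrays, two-sided, with Benjamini-Hochberg adjustment over 5577 genes and a threshold of 0.05. The fit had 6 residual and 3.52 prior degrees of freedom, and it ignores that the retentostat arrays come from 2 cultures sampled repeatedly. Folds against a group wholly under the floor are lower bounds. The number of arrays limits the precision; no exact test of 2 against 3 arrays could pass after adjustment.

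The retentostat labels give 1 culture code per replicate number. Deviations of same-numbered arrays from their day's mean correlated across genes at 0.227 to 0.690 between retentostat days, and at -0.209 to 0.288 between chemostat and retentostat, whose culture codes differ. The numbers were therefore taken as pairing retentostat days only.

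The members and all lists were chosen with earlier results of these data known. The members past the threshold in any test and every oxidation enzyme are given array by array, and the others by ranges, counts and the largest changes of their role. The alternatives were quantile and median scaling, a floor of 30, leaving out mean signals under 50, the mean of all probe sets of a gene, only the groups compared, the culture as a random block, a replicate block, leaving out the 3 arrays of high ACT1 ratio, and leaving out each array.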

Additional observations from a re-analysis of the deposited data

Results flagged for a closer look

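PEX10, a ubiquitin ligase subunit of the import pore, was flagged for lying on opposite sides of the chemostat arrays on different days. Both its arrays lay above all 3 chemostat arrays on days 2, 9 and 16, and below all 3 on day 20. Its log2 difference from the chemostat on day 20 was lower than that of day 2 by a difference of -0.51, of day 9 by -0.76 and of day 16 by -0.39. The limma tests of these differences did not pass (adjusted p = 0.352, 0.528 and 1). CRC1, the mitochondrial carnitine carrier gene, lay below all 3 chemostat arrays on day 9 and above all 3 on day 20, in both cultures. The limma test of this CRC1 difference between days, 1.16 on the log2 scale, did not pass either (adjusted p = 0.378). These 4 comparisons share the day 20 arrays. The chemostat arrays set the flag, and they enter the tests only through the spread estimated over all arrays.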

How the results depend on the processing

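The number of members called depended on the arrays left out and, in its split by direction, on the scaling. So did the number called over all genes. On day 9 it was 12 (4 to 16 over the 11 fits that left out 1 array), on day 16 it was 15 (6 to 22), and on day 20 it was 12 (0 to 17). Leaving out the 3 arrays of high ACT1 ratio leaves 1 array on each late day and gave fewer calls on days 16 and 20. Fitting the compared groups alone gave 23 on day 20, for a reason that was not tested. In that fit 34.8% of all genes were called on day 20, against 13.5% in the main fit. On day 2 it was 0 in all fits (0 to 0). From day 2 to day 20 it was 0 (0 to 0), and 1 with median scaling or with the culture as a random block, when FAA4 was lower. The F test gave 8, and 1 without chemostat array 1, 2 or 3, when 2.8%, 3.44% and 3.05% of all genes were called. The culture as a random block gave 14, 18 and 14 on days 9, 16 and 20, when 16.1%, 22.1% and 14.9% of all genes were called. With the replicate block the counts were 11, 17 and 10 on days 9, 16 and 20, 0 from day 2 to day 20 and 7 in the F test. Of all genes, 11.2%, 18.1%, 10.8%, 0.932% and 7.15% were called in these tests. Chemostat and retentostat arrays of 1 number come from different cultures, so for them the block ties arrays that share only a number.

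The oxidation minus import gap ran from -1.08 to -0.49 on day 2, -2.34 to -1.73 on day 9, -3.38 to -1.78 on day 16 and -2.18 to -1.45 on day 20 as single arrays were left out. The -1.45 rests on DCI1 held at the floor, and the -1.08 on DCI1 near it. For the gap of day 16, 2 further settings were compared. This day 16 gap was -1.78 without the 3 arrays and -1.53 with all PEX genes against all fatty acid genes but the regulators. Of 39 calls of single members against the chemostat, 5 held in all settings (ECI1 and PEX4 on day 9; ECI1, PEX29 and FAA2 on day 16), none reversed, and 190 of 771 alternative values missed the threshold. Signals near the floor, as those of PEX18, PEX9 and DCI1, limit what the arrays can show.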
